A study of Mus musculus with 10 samples.

Results

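Cytosolic ribosomal protein genes encode the protein parts of the ribosomes that translate messenger RNA in the cytoplasm. They were taken from the deposited gene table by symbol, as Rpl or Rps followed by a number and optionally by a or x, with Rpsa, Rplp0, Rplp1 and Rplp2 added. This gave 76 of 52171 listed genes, 30 of the small and 46 of the large subunit, without pseudogenes or paralogs whose symbols end in l. RNA-seq had been run on leukemia stem cells from mice in which the fusion oncogene MLL-AF9 drives acute myeloid leukemia. These cells were taken from bone marrow by a sort for lineage-negative, Sca-1-negative cells positive for c-Kit, CD16/32 and CD34. The floxed control group, 5 libraries, carried Nup214fl/+, that is 1 floxed allele of the nucleoporin gene Nup214. The heterozygous group, 5 libraries, carried the same floxed allele with Tie2-Cre, a recombinase driven by a promoter active in endothelial and blood cells.

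Both groups carried MLL-AF9. Cre was present in the heterozygous group alone, so what Cre does and what loss of a Nup214 allele does cannot be told apart. The labels give no age. Whether each library is a separate mouse is not stated either, and p-values therefore speak only to the spread among these libraries, which may be technical. Below, libraries are called control 1 to 5 and heterozygous 1 to 5, by the numbers in their labels. The labels do not say that equal numbers pair a control with a heterozygous library, and the main test treated them as unpaired.

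A ribosome holds a single copy of nearly every ribosomal protein, and their genes are among the most strongly transcribed in growing cells. Their messenger RNAs begin with a run of pyrimidines, the 5′ terminal oligopyrimidine or TOP motif, through which mTORC1 and the RNA-binding protein Larp1 control their translation and stability. In blood formation the family is known from Diamond-Blackfan anemia, a human failure of red cell production caused mostly by loss of 1 copy of a ribosomal protein gene.

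The libraries held 20.8 to 30.1 M reads in the controls and 24.6 to 39.1 M in the heterozygous group. Normalized reads of Nup214 itself were 906 ± 69.8 (SD, n = 5) in controls against 484 ± 83.1 (SD, n = 5) in the heterozygous group, with every heterozygous library below every control (log2 fold change -0.92, SE 0.13, adjusted p = 0.00144 by limma). The heterozygous libraries were unlike one another in markers of other cells. The summed level of 12 mature neutrophil markers took 4.04% to 6.15% of reads in controls, 0.213% and 0.349% in heterozygous 1 and 2, and 7.77%, 5.51% and 11.3% in heterozygous 3, 4 and 5. The 1 marker at 0 reads in any library was Retnlg, in control 2. The 12 markers did not all move alike. Without heterozygous 1 and 2, limma called 10 higher and 1 lower, beside 9.33% and 12.1% of all genes tested. The lower one was Camp (log2 fold change -1.04, adjusted p = 0.0389 by limma). Without heterozygous 3, 4 and 5, 0 were higher and 9 lower, beside 7.44% and 8.22% of all genes tested. The 11 erythroid markers summed to 0.76 to 3.11 CPM (reads scaled to a fixed library total) in controls, 0.29 and 3.85 in heterozygous 1 and 2, and 80.5, 83.3 and 61.1 in heterozygous 3, 4 and 5. Of these 11, 6 were at 0 reads in heterozygous 1, among them the globin genes Hba-a2, Hbb-bs and Hbb-bt. Kit, which encodes the c-Kit receptor used in the sort, was lower in the heterozygous group (log2 fold change -0.89, SE 0.21, adjusted p = 0.0184 by limma). Without heterozygous 3, 4 and 5 Kit missed the threshold (-0.51, adjusted p = 0.0521 by limma). Ly6a, which encodes Sca-1, was also lower (-0.83, SE 0.23, adjusted p = 0.0339 by limma). The other sort genes, Cd34 (-0.62, SE 0.40), Fcgr3 (0.29, SE 0.43) and Fcgr2b (-0.0083, SE 0.12), were not called with all libraries. Without heterozygous 3, 4 and 5 Fcgr3 was called higher (1.36, adjusted p = 0.00193 by limma). Without heterozygous 1 and 2 Cd34 was called lower (-1.14, adjusted p = 0.0260 by limma).

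The ribosomal protein genes took a similar mean share of reads in both genotypes, but a very different share from one heterozygous library to the next. In controls 1 to 5 they took 6.21%, 6.42%, 8.73%, 7.51% and 7.70% of all reads. In heterozygous 1 to 5 they took 10.1%, 10.5%, 5.81%, 6.27% and 7.04%. Heterozygous 1 and 2 stood above every control, heterozygous 3 stood below every control, and heterozygous 4 and 5 lay within the control range. The mean share was 7.32% ± 1.03 (SD, n = 5) in controls, against 7.94% ± 2.19 (SD, n = 5) in heterozygous libraries, a difference smaller than either spread. In sorted but bulk RNA, fewer cells of a type and less of an RNA per cell cannot be told apart. The libraries with the highest ribosomal share were those with the lowest neutrophil marker level. With the neutrophil markers taken out of the total, the ribosomal share was 6.50% to 9.10% in controls, 10.1% and 10.5% in heterozygous 1 and 2, and 6.30%, 6.64% and 7.93% in heterozygous 3, 4 and 5, so heterozygous 1 and 2 were still above every control and heterozygous 3 below. The part of neutrophils, or of other differences between these libraries, in the result was not tested.

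**Figure D1:**
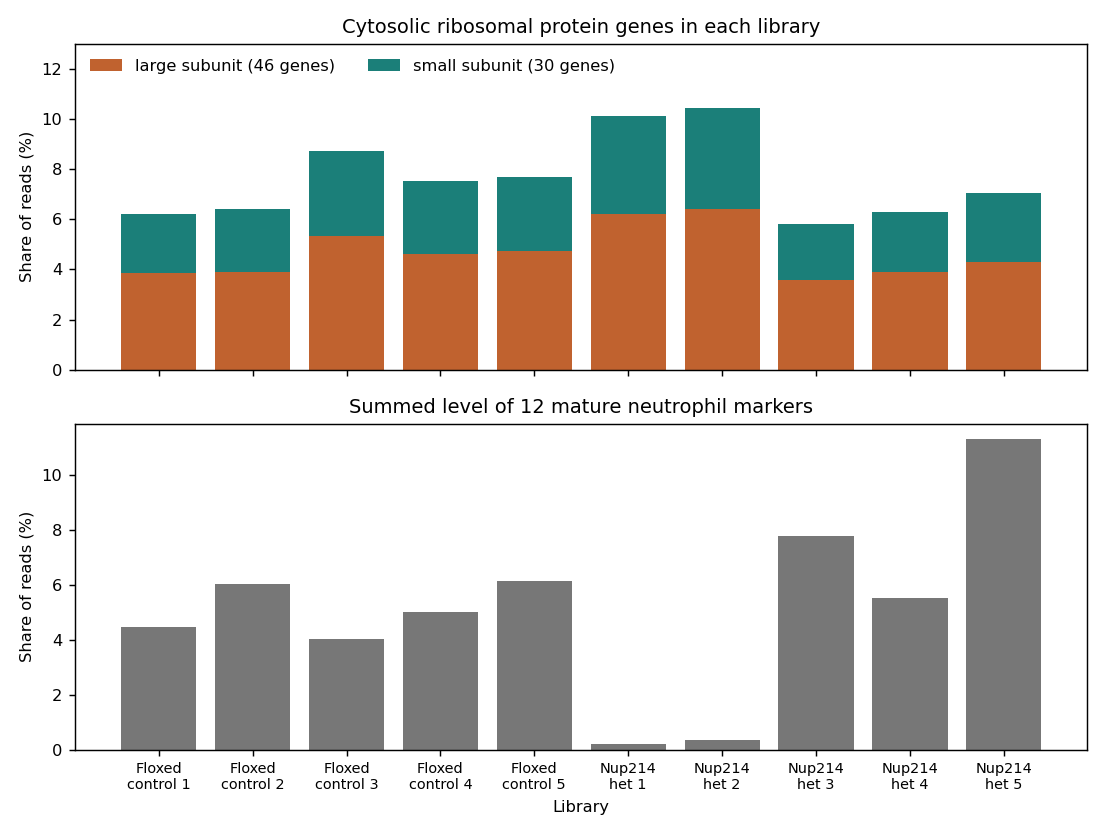
Stacked bars give the share of reads in percent of the large and small subunit genes in each of the 10 libraries, and grey bars below give the share of 12 mature neutrophil markers on the same unit. The ribosomal share reached 10.1% and 10.5% in heterozygous 1 and 2, where the neutrophil markers took 0.213% and 0.349%.

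The balance between the subunits was nearly constant. The summed small subunit genes divided by the summed large subunit genes gave 0.618, 0.641, 0.634, 0.625 and 0.625 in controls 1 to 5, and 0.630, 0.634, 0.619, 0.615 and 0.633 in heterozygous 1 to 5. The group means were 0.629 ± 0.00894 (SD, n = 5) and 0.626 ± 0.00871 (SD, n = 5), so the groups overlapped and their means differed by less than the spread. The share of the small subunit alone ranged from 2.22% to 4.06% of reads and that of the large subunit from 3.59% to 6.4%, both lowest in heterozygous 3 and highest in heterozygous 2. The 30 and 46 genes thus moved in step between libraries whose total ribosomal share differed widely.

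Member by member, the order of libraries was shared by almost the whole family. Values here are normalized reads, which are read counts that the authors divided by 1 factor per library. Heterozygous 1 and 2 were both above every control for 72 of the 76 genes, 27 small and 45 large, whereas 15.6% of all 22458 genes tested showed this order and 50.9% of the 1605 genes at or above the lowest mean of a ribosomal gene. Heterozygous 2 was the highest of the 10 libraries for 66 genes. At the other end, control 1 was the lowest library for 42 genes and heterozygous 3 for 20. Control 3 exceeded the other controls for 74 genes, so most of the family shared a direction among controls too. The shares of all genes with these last orders were not counted, so they are not shown to be particular to the family.

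The median gene deviated from the mean of the controls by -0.28, -0.24, 0.37, 0.098 and 0.071 on the log2 scale in controls 1 to 5. In heterozygous 1 to 5 the median deviation was 0.59, 0.73, -0.18, 0.041 and 0.42. The medians of small and large subunit genes lay closest in heterozygous 4, at 0.038 and 0.041, and farthest apart in heterozygous 3, at -0.23 and -0.18. Heterozygous 5 depended on the scale: 51 genes stood above every control on normalized reads, and 0 did so on CPM, where each library is divided by its own total. For heterozygous 5 the share of all genes above every control was not counted on either scale. On CPM, heterozygous 1 and 2 were above heterozygous 3, 4 and 5 for all 76 genes, an order that 26.7% of all genes tested and 45.4% of the genes of the same level showed. On that scale 44 genes had heterozygous 3 below every control, against 37.5% of all genes tested and 41.2% of those of the same level.

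**Figure D2:**
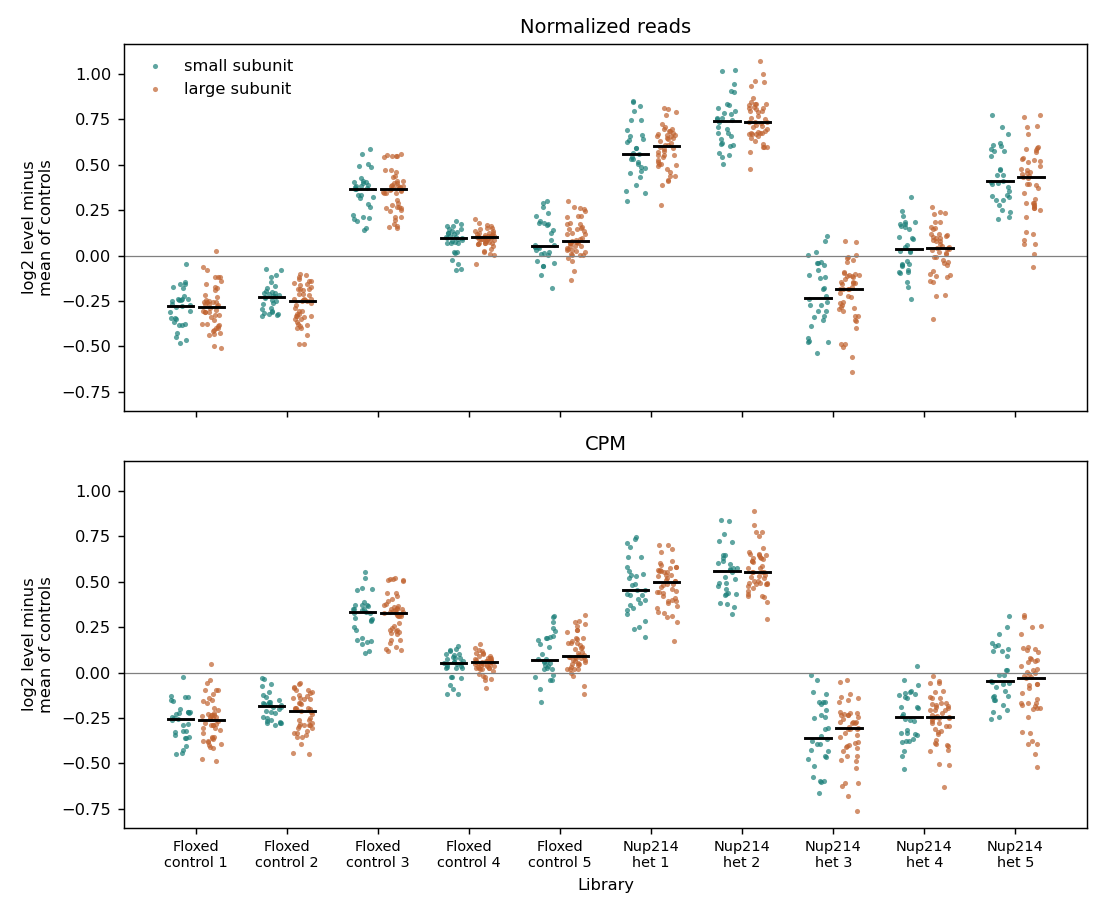
Each point is 1 ribosomal protein gene in 1 library, as its log2 level minus its mean over the 5 controls, on normalized reads (top) and on CPM (bottom), with black bars at the median of each subunit. The small and large subunit genes shift together in every library, heterozygous 1 and 2 lie highest on both scales, and heterozygous 5 falls from a median of 0.42 to one of -0.039 between scales.

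Across genotypes, no ribosomal protein gene passed the test when all 10 libraries were used. All 76 genes entered the test, none having been lost to the filter on low values. With limma, 0 of 76 were higher and 0 lower at an adjusted p under 0.05, whereas 5% of all genes tested were called higher and 8.01% lower. At an unadjusted p under 0.05 by limma there were 9 genes, or 11.8% of the family. That was a smaller share than the 32.0% of all genes tested and the 36.2% of the 1605 genes at or above the lowest mean of a ribosomal gene. The smallest adjusted p was 0.110 (Rps9). The edgeR quasi-likelihood test on recovered reads called 0, beside 7.63% of its genes called higher and 6.1% lower. DESeq2 on the same reads called 2 higher and 0 lower, beside 6.78% and 7.93% of its genes, Rpl13 (adjusted p = 0.0431) and Rplp0 (adjusted p = 0.0463). All 76 fitted log2 fold changes were above 0, from 0.071 for Rpl14 to 0.49 for Rps20. Of all genes tested 37.5% were above 0, but of the 1605 genes at or above the lowest mean of a ribosomal gene 78.6% were. The median was 0.33 in the small and 0.32 in the large subunit, against -0.19 over all genes tested and 0.21 over those 1605 genes. Of those 1605 genes, 18% were called higher and 2.12% lower. The SE of a ribosomal gene had a median of 0.20, against 0.14 over the other genes of that level. With quantile normalization the median fell to 0.071 and 55 of 76 were above 0, and with scaling to total reads it fell to 0.095 and 58 of 76 were above 0. The positive sign was common to all 76 genes on the authors' scale and with TMM and upper quartile scaling, and it reversed for a part of them on the other 2.

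**Figure D3:**
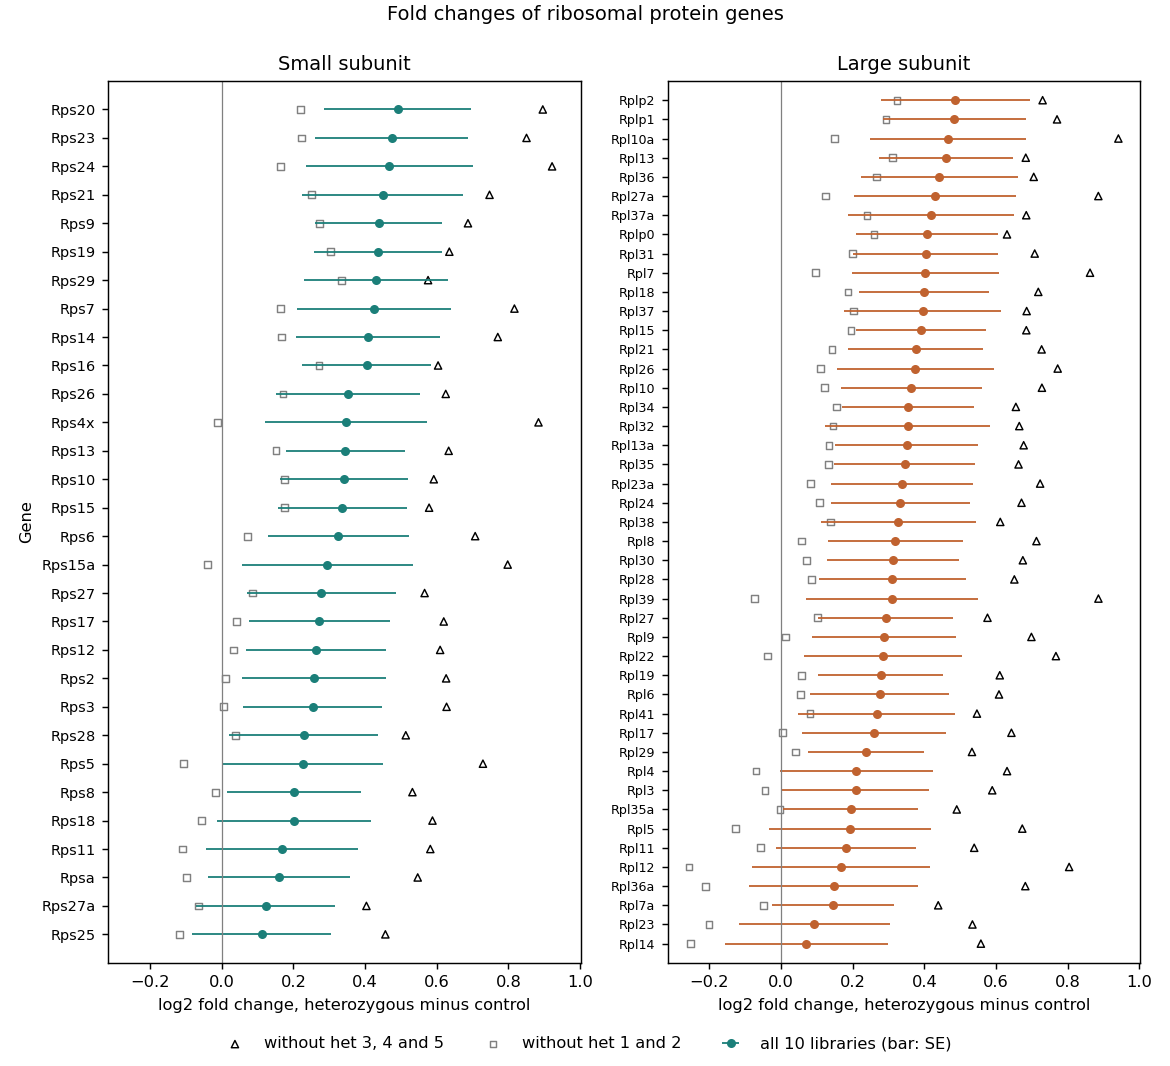
Filled points give log2 fold changes of the genes, 1 of which is not drawn, heterozygous minus control, with bars of 1 SE, for the small subunit (left) and the large subunit (right); open triangles leave out heterozygous 3, 4 and 5 and open squares leave out heterozygous 1 and 2. All filled points lie between 0.071 and 0.49, the triangles lie to their right, from 0.40 to 0.94, and the squares range from -0.26 to 0.33.

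The outcome turned on which heterozygous libraries were counted. Those left out here were already known from these data to stand apart, so the following counts are descriptions. Without heterozygous 3, 4 and 5, limma called 63 of 76 genes higher, 25 small and 38 large, and 0 lower, with a median log2 fold change of 0.66, while 7.44% of all genes tested were called higher and 8.22% lower. The share called among genes at the members' level was not counted in this fit. Heterozygous 1 and 2 were both above every control for 50.9% of the genes at that level, against 15.6% of all genes tested. The largest of these was Rpl10a, a large subunit protein, at 0.94 (adjusted p = 0.00225 by limma). The 13 that were not called included Rpl14, Rpl23, Rpl41, Rps25, Rps27a and Rps29. Without heterozygous 1 and 2, 0 genes were called, the median was 0.091 and 55 of 76 were above 0, while 9.33% of all genes tested were called higher and 12.1% lower. Without heterozygous 3 alone, 1 gene was higher and 0 lower, beside 4.8% and 5.97% of all genes tested. It was Rps19 (adjusted p = 0.0374 by limma), the small subunit gene mutated most often in Diamond-Blackfan anemia in humans.

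The gene with the smallest adjusted p, singled out after its values were seen, shows the pattern. Rps9 encodes a small subunit protein at the mRNA entry site and lies at chr7:3703993-3706897 on the plus strand in GRCm38. It read 30599, 32231, 45236, 39920 and 39331 normalized reads in controls 1 to 5. It read 57745, 61700, 39260, 41002 and 55773 in heterozygous 1 to 5. Heterozygous 1, 2 and 5 were above every control, and heterozygous 3 and 4 lay within the control range, so the groups overlapped. The log2 fold change was 0.44 (SE 0.18, adjusted p = 0.110 by limma).

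Rplp0 encodes the base of the ribosomal stalk, the large subunit arm that recruits the translation factors. It read 133698, 134033, 165477, 159047 and 148075 normalized reads in controls 1 to 5, and 220209, 236805, 144017, 174504 and 218862 in heterozygous 1 to 5. In 4 heterozygous libraries it was above every control, and in heterozygous 3 it was not (log2 fold change 0.41, SE 0.20, adjusted p = 0.174 by limma). Its partners Rplp1 and Rplp2, the acidic proteins that form the tip of the stalk, had log2 fold changes of 0.48 and 0.49 (SE 0.20 and 0.21), and neither passed the test. Rpl12, which binds at the foot of the stalk, read 4050, 4010, 6130, 5323 and 4809 in controls 1 to 5. In heterozygous 1 to 5 it read 7518, 9343, 3428, 3767 and 5019. For Rpl12 heterozygous 1 and 2 were above every control and heterozygous 3 and 4 below every control, and its log2 fold change was 0.17 ± 0.25 (SE; adjusted p = 0.670 by limma). Under quantile normalization that change was -0.065, and without heterozygous 1 and 2 it was -0.26.

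In each of the role lists 0 genes were called with all libraries, and the 4 stalk genes had a median log2 fold change of 0.45. Rpl5 and Rpl11, which with 5S ribosomal RNA form the particle that can bind Mdm2 and stabilise p53, had a median log2 fold change of 0.19. The 9 genes at the exit tunnel, through which the new protein leaves, had a median of 0.31, among them Rpl4 (0.21) and Rpl39 (0.31). The 5 genes listed for the mRNA channel, among them Rps3 (0.25), which helps to unwind incoming mRNA, had a median of 0.26. Rps9 (0.44) was not in that list. The 20 genes known from Diamond-Blackfan anemia in humans, such as Rps19 (0.44) and Rpl35a (0.19), had a median of 0.35, and the 4 X-linked genes, Rps4x, Rpl10, Rpl36a and Rpl39, one of 0.33. Without heterozygous 3, 4 and 5, all 4 stalk genes, both 5S genes, 9 of 9 tunnel genes, 4 of 5 channel genes, 16 of 20 Diamond-Blackfan genes and 4 of 4 X-linked genes were called higher, beside 63 of all 76. The role medians with all libraries ran from 0.19 to 0.45, around 0.33 for the family.

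The levels of the genes differed far more from one another than between genotypes. Per kilobase of coding sequence, the highest mean levels over the 10 libraries were 293138 normalized reads for Rpl41, 251843 for Rps29 and 182411 for Rplp0. The lowest were 6129 for Rpl22, 8346 for Rps21 and 10787 for Rpl12. The order depends on the length used. Per kilobase of annotated transcript, Rplp0 (127741), Rpl13 (117955) and Rps29 (108486) were the highest and Rpl41 stood at 79475, while Rpl12 (4299), Rps20 (4880) and Rpl22 (4965) were the lowest. For Rps20 the annotated transcript has 3706 bases against a coding sequence of 357. Rpl41, a basic peptide of the large subunit, read 27094, 30003, 48474, 36584 and 40350 normalized reads in controls 1 to 5 and 50260, 54167, 27849, 36018 and 53733 in heterozygous 1 to 5. Rps29, a small subunit protein that binds zinc, read 26224, 28353, 49767, 34140 and 43408 in controls and 51057, 54224, 38098, 40211 and 57615 in heterozygous 1 to 5. In both genes heterozygous 1, 2 and 5 were above every control and the others fell within the control range.

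Rpl22, an RNA-binding large subunit protein needed for T cell development in mice, read 1632, 1574, 2703, 2281 and 2292 normalized reads in controls 1 to 5 and 3326, 3665, 1686, 1931 and 2446 in heterozygous 1 to 5. Rps21, a small subunit protein, read 1218, 1354, 2505, 1672 and 2046 in controls and 2684, 3030, 1640, 1731 and 2901 in heterozygous 1 to 5. For Rpl22 the groups overlapped through heterozygous 3, 4 and 5, and for Rps21 through heterozygous 3 and 4.

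Within the ribosomal pool, a gene can be read against the rest of its own family, which removes the shared movement. Scaled to the summed values of the 76 genes, limma called 0 of them, 0 higher and 0 lower, against 0.655% of all genes called higher and 11.2% lower. The log2 fold changes within the pool ran from -0.25 for Rpl14, a large subunit protein, to 0.17 for Rps20, a small subunit protein. The groups did not overlap for 3 genes, chosen here after their values were seen, and Rps9 was the single one with every heterozygous library above every control, an order that 0.454% of all genes tested and 1.37% of the genes of the same level showed on this scale. Rps9 took 1.82%, 1.88%, 1.84%, 1.87% and 1.87% of the pool in controls 1 to 5 and 1.93%, 1.89%, 2.25%, 1.94% and 2.1% in heterozygous 1 to 5. The other two were lower in every heterozygous library, an order shown by 9.53% of all genes tested and 3.93% of those of the same level.

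Rps25, a small subunit protein needed for translation from some internal entry sites, took 0.761%, 0.739%, 0.806%, 0.756% and 0.758% of the pool in controls 1 to 5 and 0.652%, 0.688%, 0.629%, 0.686% and 0.658% in heterozygous 1 to 5. The log2 fold change within the pool was -0.21 (SE 0.14, adjusted p = 0.307 by limma). Rps27a, made as a fusion of ubiquitin with a small subunit protein, took 1.68%, 1.78%, 1.90%, 1.70% and 1.93% in controls and 1.47%, 1.56%, 1.57%, 1.65% and 1.59% in heterozygous 1 to 5. Here the log2 fold change was -0.19 (SE 0.14, adjusted p = 0.350 by limma). Neither passed the test, although the groups were separate in both. Such separation was no more frequent in the family than at its level in general. Every heterozygous library was lower for 2.63% of the members against 3.93% of the genes of the same level, and higher for 1.32% against 1.37%.

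Among the controls, and in heterozygous 5, deviations of the genes followed the length of the coding sequence. The 25 genes with the shortest coding sequences (138 to 405 bases) were summed and divided by the 25 with the longest (582 to 1257 bases). The ratio was 0.303, 0.320, 0.405, 0.329 and 0.392 in controls 1 to 5 and 0.349, 0.346, 0.349, 0.349 and 0.390 in heterozygous 1 to 5, so the controls spanned the heterozygous values. The median deviation of short genes minus that of long genes was -0.16 on the log2 scale in control 1 and 0.19 in control 3. Genes outside the family of the same level and length classes, 137 short and 557 long, gave -0.14 and 0.17 there. In heterozygous 5 the difference was 0.19 inside and 0.11 outside the family, and in heterozygous 3 it was 0.00302 inside and -0.15 outside. Across the 76 genes, Spearman's rho between coding length and deviation from the control mean was 0.655, 0.561, -0.779, 0.612 and -0.658 in controls 1 to 5. It was -0.026, -0.027, -0.086, -0.075 and -0.414 in heterozygous 1 to 5, so heterozygous 1 to 4 showed little of the pattern. The deviations are taken from the mean of the same controls, and the genes of a library share its RNA and amplification and are not independent replicates. The cause of this length pattern was not tested.

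**Figure D4:**
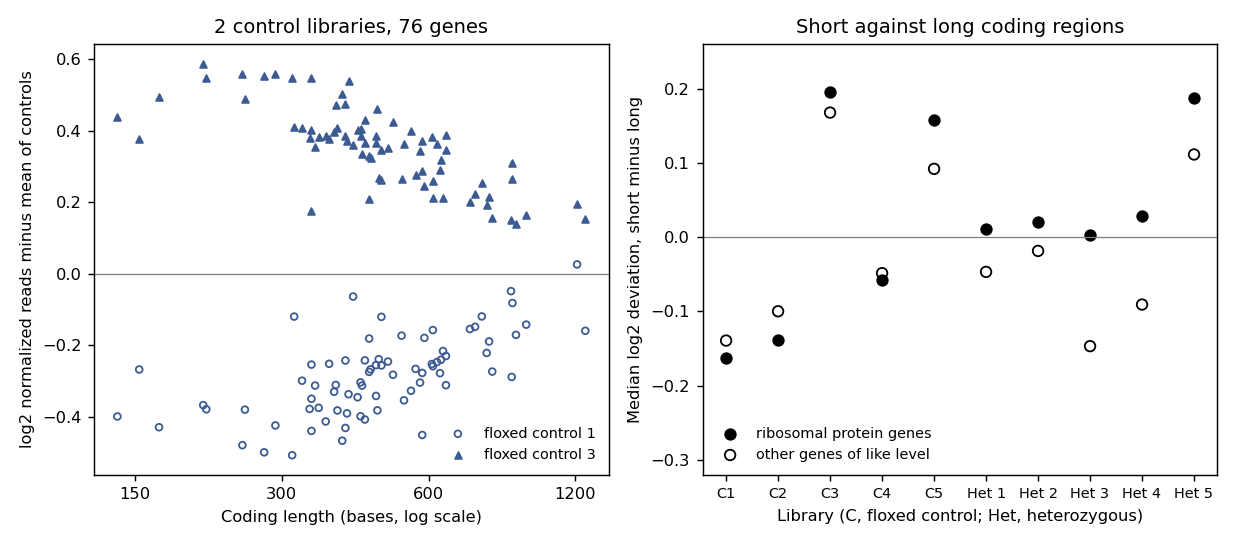
Left, the log2 normalized reads of each of the 76 genes minus its control mean, against coding length in bases on a log axis, for controls 1 and 3. Right, the median deviation of short minus that of long genes in each library, for ribosomal protein genes (filled) and other genes of like level (open). The 2 sets lie close together in the controls, from -0.16 to 0.19 for the ribosomal genes.

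More than one sequence feature was frequent at the starts of these genes. RefSeq promoter windows of GRCm38.p6, 250 bases before to 50 bases after an annotated start, were matched by symbol for 56 of the 76 genes, 22 small and 34 large. A pyrimidine run on the gene's strand, a C followed by at least 6 more C or T within 20 bases of the start on either side, was found for 32 of the 56 genes (57.1%) against 21.4% of the 27025 genes with a window. CCGGAA, the core bound by ETS factors such as Gabpa, was found on either strand of the whole window for 31 of 56 (55.4%) against 16.7%. AAGATGG, a core bound by Yy1, was found on either strand for 9 (16.1%) against 7.28%, and TATAAA, the TATA box, for 6 (10.7%) against 15.7%. Read on the other strand CCGGAA is TTCCGG, so its pyrimidines can overlap a run. These matches are descriptions of letters, not of binding.

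The whole run, also where it reaches past the searched bases, is shown in capitals in 50 bases around the start, 30 before and 20 from it. Genes without a run or without a window were left out first. Of the rest, the 4 genes of highest and the 4 of lowest fold change are shown, so each has a run by choice. Genes without a run also lie near both ends of the fold change order, such as Rps23 (0.47) and Rpl23 (0.093). The regions, in GRCm38.p6 and all on the plus strand, are chr7:141447621-141447670, chr14:24490648-24490697, chr17:28328441-28328490 and chr8:123102320-123102369 for the first 4, and chr5:107900498-107900547, chr2:26910777-26910826, chr9:44407684-44407733 and chr9:120571487-120571536 for the last 4.
Rplp2: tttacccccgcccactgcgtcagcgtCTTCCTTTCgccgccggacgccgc
Rps24: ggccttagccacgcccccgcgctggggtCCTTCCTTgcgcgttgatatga
Rpl10a: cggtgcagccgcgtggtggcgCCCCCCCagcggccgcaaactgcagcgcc
Rpl13: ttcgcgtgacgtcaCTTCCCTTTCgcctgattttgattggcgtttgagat
Rpl5: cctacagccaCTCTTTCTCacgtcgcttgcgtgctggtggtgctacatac
Rpl7a: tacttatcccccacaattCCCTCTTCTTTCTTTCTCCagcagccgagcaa
Rps25: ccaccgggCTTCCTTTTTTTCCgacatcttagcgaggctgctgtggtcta
Rpl14: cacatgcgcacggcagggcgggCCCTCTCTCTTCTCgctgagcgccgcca
The first 4 genes had log2 fold changes of 0.49, 0.47, 0.47 and 0.46, and the last 4 had 0.19, 0.15, 0.11 and 0.071. The runs are 9, 8, 7 and 10 bases long in the first set and 9, 19, 14 and 14 in the second. Relative to the annotated start they begin at -4, -2, -9 and -16 in the first set and at -20, -12, -22 and -8 in the second. In Rpl10a, Rpl13, Rpl5 and Rps25 the run ends before the annotated start. It is therefore not shown to be part of the messenger RNA there.

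Of 4 genes of the cytosolic ribosome that the symbol rule leaves out, 0 were called, and their median log2 fold change was 0.30. Fau, a ubiquitin-like fusion with a small subunit protein, read 31039, 33550, 49838, 39445 and 43059 normalized reads in controls 1 to 5 and 48760, 52002, 44782, 44791 and 63785 in heterozygous 1 to 5, where heterozygous 2 and 5 exceeded every control. Its log2 fold change was 0.38 (SE 0.17, adjusted p = 0.143 by limma).

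Rps3a1, a small subunit protein, read 28401, 30747, 42018, 38319 and 38431 in controls 1 to 5 and 57868, 61040, 26673, 36342 and 42223 in heterozygous 1 to 5. Rack1, a scaffold on the head of the small subunit, read 12710, 12924, 15660, 16380 and 12914 in controls and 22166, 26137, 11848, 13156 and 18341 in heterozygous 1 to 5. Both were highest in heterozygous 1 and 2 and lowest in heterozygous 3. The log2 fold changes were 0.28 (SE 0.22) and 0.32 (SE 0.20), and neither passed the test with all libraries. Both were called higher without heterozygous 3, 4 and 5, Rps3a1 at 0.76 (adjusted p = 0.00698 by limma) and Rack1 at 0.78 (adjusted p = 0.00198 by limma), and without heterozygous 1 and 2 they were at -0.031 and 0.016.

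Among the paralogs, Rpl22l1 is known to be raised in mice when Rpl22 is lost. It read 2693, 2810, 4418, 3988 and 4659 normalized reads in controls 1 to 5 and 7642, 7545, 2578, 3719 and 3280 in heterozygous 1 to 5. Heterozygous 1 and 2 exceeded every control and heterozygous 3 fell below all of them, and the log2 fold change was 0.31 ± 0.29 (SE; adjusted p = 0.486 by limma). Rpl22l1 was called higher without heterozygous 3, 4 and 5 at 1.07 (adjusted p = 0.00201 by limma), and without heterozygous 1 and 2 its fold change was -0.20. Divided by Rpl22, the read ratio was 1.63 to 2.03 in controls and 2.30, 2.06, 1.53, 1.93 and 1.34 in heterozygous 1 to 5, so the groups overlapped. Counting may split reads between near-identical genes, such as Rpl36a and Rpl36al. The sources used here do not say how multiply mapped reads were treated.

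The other paralogs gave no call with all libraries, and without heterozygous 3, 4 and 5 Rpl7l1 was called higher (0.38, adjusted p = 0.0302 by limma). Rpl36al, nearly identical to Rpl36a, read 9113 to 13795 in controls and 8159 to 15474 in the heterozygous group (log2 fold change 0.068, SE 0.18). Rpl7l1 read 3326 to 3848 and 3262 to 4811 (0.19, SE 0.12), and Rps27l, a target of p53, read 3974 to 5803 and 3456 to 6074 (0.050, SE 0.16). For these last 3 the sign reversed under quantile normalization, to -0.17, -0.045 and -0.19. The parents Rpl3, Rpl7, Rpl10, Rpl36a, Rpl39, Rps4x and Rps27 had log2 fold changes of 0.21, 0.40, 0.36, 0.15, 0.31, 0.35 and 0.28. Rpl3l, known from striated muscle, stayed under 10 normalized reads in every library, and Rps4l was at 0 to 2.77 in controls, 0 in heterozygous 1 and 2, and 11.9, 12.04 and 19.99 in heterozygous 3, 4 and 5. Without heterozygous 1 and 2, Rps4l was called higher (adjusted p = 0.00576 by limma). Rpl10l and Rpl39l, known from testis, had at most 3 reads in a library and were not tested. The 319 listed pseudogenes of member genes held 0.675% to 1.10% as many reads as the members, and adding them to their parent genes left 0 of 76 called.

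Lists of genes that work with the ribosome had lower median fold changes than its own proteins. Their calls are to be read against the 5% of all genes tested, and the 18% of genes at the members' level, that were called higher. Among 40 initiation factor genes, 3 were called higher and 0 lower, and the median was 0.10. Eif4g3, a scaffold of the cap-binding complex, read 630 to 802 normalized reads in controls and 964 to 1290 in the heterozygous group, without overlap (log2 fold change 0.60, SE 0.11, adjusted p = 0.00668 by limma). Eif4a2, an RNA helicase of the same complex, read 2437 to 2755 and 3270 to 3699, also without overlap (0.45, SE 0.090, adjusted p = 0.00944 by limma). On normalized reads, 4.64% of all genes tested had every heterozygous library above every control. The separation depended on the scale. On CPM, Eif4g3 was at 23.2 to 29.4 in controls and 27.8 to 41.3 in the heterozygous group, and Eif4a2 at 86.5 to 103 and 97.8 to 120. In both the groups then overlapped.

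Of 19 other TOP genes, 1 was called higher and 0 lower, and the median was 0.24. It was Nap1l1, a histone chaperone, which read 1536 to 2140 in controls and 2351 to 2931 in the heterozygous group, without overlap (0.52, SE 0.12, adjusted p = 0.0161 by limma). On CPM its groups overlapped, at 56.6 to 75.4 in controls and 68.7 to 98.9 in the heterozygous group. Among 78 mitochondrial ribosomal protein genes, which serve the organelle's own ribosomes, 3 were called higher and 0 lower, and the median was 0.085. Mrpl33 read 2253 to 3361 and 3979 to 6036 (0.89, SE 0.15, adjusted p = 0.00421 by limma), and Mrpl17 read 1870 to 2217 and 2397 to 3012 (0.43, SE 0.10, adjusted p = 0.0199 by limma). In both genes the groups were separate on these normalized reads. On CPM Mrpl33 stayed separate, whereas Mrpl17 overlapped, at 67.9 to 78.1 in controls and 74.8 to 92.4 in the heterozygous group.

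Elongation factors (0 of 12), ribosome biogenesis factors (0 of 49) and TOP and mTORC1 regulators (0 of 25) gave no call with all libraries, with medians of 0.11, 0.0073 and -0.15. Without heterozygous 3, 4 and 5, where 7.44% of all genes tested were called higher, the genes called higher were 4 of 12 for elongation, 13 of 40 for initiation, 13 of 19 for the other TOP genes, 17 of 49 for biogenesis, 20 of 78 for the mitochondrial ribosome and 2 of 25 for the regulators. In that fit 1 initiation gene and 4 regulators were lower, and 0 in the other lists. The 7.44% covers genes of every level, and shares among genes of like level were not counted in that fit. Without heterozygous 1 and 2, where 9.33% of all genes tested were called higher and 12.1% lower, 8 biogenesis, 7 mitochondrial, 1 initiation and 1 regulator gene were lower. In the same fit 2 initiation, 1 other TOP, 2 mitochondrial and 1 regulator gene were higher. Eif4g3, Eif4a2, Nap1l1, Mrpl33 and Mrpl17 were called higher in both of these fits. Myc, a regulator of transcription of ribosomal genes, read 3976 to 5272 normalized reads in controls and 10087, 7091, 7153, 7664 and 3350 in heterozygous 1 to 5. It was above every control in heterozygous 1 to 4 and below them in heterozygous 5, and its log2 fold change was 0.57 ± 0.23 (SE; adjusted p = 0.110 by limma). Myc was called higher without heterozygous 3, 4 and 5 at 0.91 (adjusted p = 0.00102 by limma), and without heterozygous 1 and 2 it was at 0.34 and not called.

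**Figure D5:**
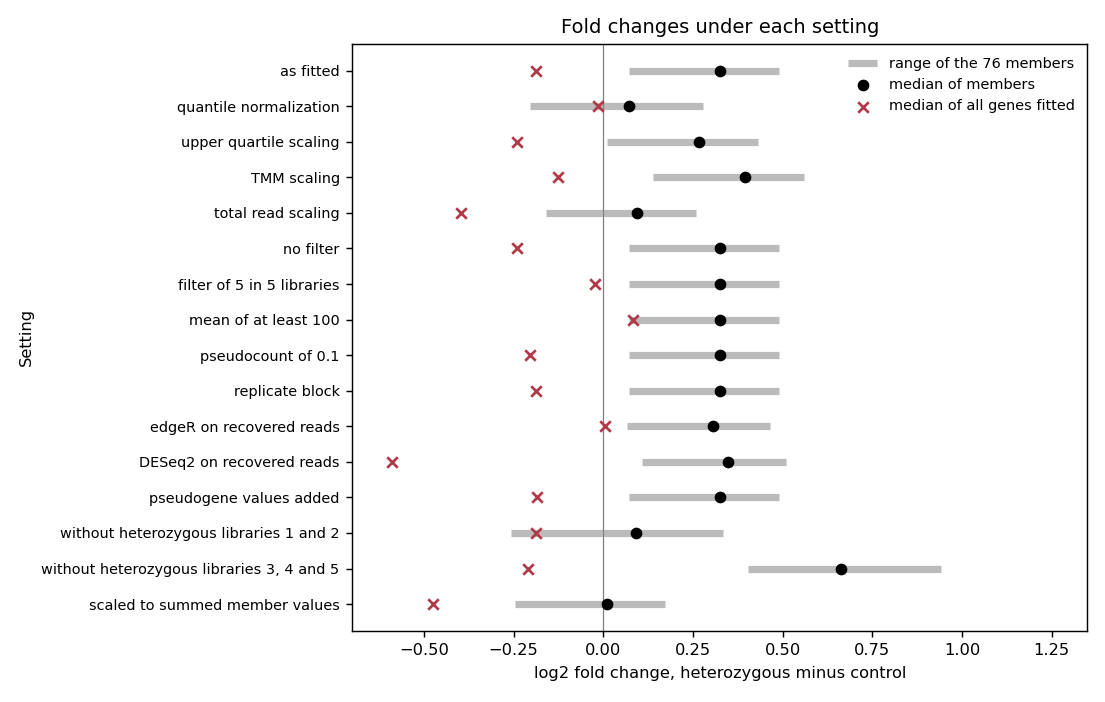
For each way of scaling, filtering, testing or leaving out libraries, the grey bar is the range of log2 fold changes over the 76 genes, the black point their median and the cross the median of all genes fitted. The members' median runs from 0.0089 when scaled to the summed members, through 0.33 as fitted, to 0.66 without heterozygous 3, 4 and 5.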

How the data were processed

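RNA had been extracted with a miRNeasy kit, amplified by Geo-seq, a method for few cells, and turned into sequencing libraries by TruePrep, per the labels' protocols. Per the submitters' processing notes the build was mm10, and HTSeq, DESeq2, Cufflinks 2.1.1 and Bowtie 0.12.9 were used in roles not stated. The signal the authors deposited behaves as counts scaled by a single factor in each library: dividing by the smallest value gave whole reads within 0.01 for at least 99.996% of values above 0 in each library. No molecular identifiers or strand setting are described, so duplicates cannot be removed, sense and antisense reads cannot be separated, and depth gives counting precision only.

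With R 4.3.3, the limma 3.58.1 trend method compared the 5 and 5 libraries on log2(normalized reads + 1), a scale that understates changes of low genes. Testing covered the 22458 genes that reached 1 in 5 or more libraries, with Benjamini-Hochberg adjustment over all of them and calls at an adjusted p under 0.05. Because the unit was a normalized one, edgeR 4.0.16 (quasi-likelihood) and DESeq2 1.42.0 on recovered reads were alternatives. The fits were tested on simulated counts. Nup214 had a two-sided exact permutation p of 0.00794, the smallest that 252 assignments allow. Levels, shares and figures used Python 3.11.15 and matplotlib 3.10.9, coding lengths and coordinates came from GENCODE M21 (GRCm38, the build called mm10), and promoter sequences from RefSeq.

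The members and lists were chosen with earlier results of these data known. Values in every library were given for members called (none), the 3 highest and 3 lowest per coding length, members outside the symbol rule, and paralogs; pathway lists named the 2 genes of smallest adjusted p among those called. A few genes are not reported here singly and stayed in all fits and counts. Other genes were singled out after their values were seen. Alternatives were other scalings (quantile, upper quartile, TMM, total reads), filters of 5 in 5 libraries, a mean of at least 100 or none, a pseudocount of 0.1, added pseudogenes, the ratio of geometric means, a replicate block, leaving out each library or 2 sets of heterozygous libraries, and, added after seeing the data, scaling to the summed members.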

Additional observations from a re-analysis of the deposited data

How the results depend on the processing

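The count of 0 ribosomal protein genes called higher became 2 with DESeq2, 63 without heterozygous libraries 3, 4 and 5, and 0 to 1 when each library was left out in turn. The median log2 fold change of 0.33 became 0.66 without heterozygous 3, 4 and 5, and ran from 0.21 to 0.45 over the single leave-outs. The difference in ribosomal share, heterozygous minus control, was 2.97 percentage points without heterozygous 3, 4 and 5, -0.943 without heterozygous 1 and 2, and -0.0066 to 1.16 over the single leave-outs. Under every alternative run, the count of genes called lower stayed at 0, Nup214 stayed lower and called, and the subunit ratio's group difference moved by less than 1 SD between libraries. With the label number as a replicate block 0 members were called, with a median of 0.33 and a smallest adjusted p of 0.183, and over all genes 703 were higher and 945 lower instead of 1122 and 1798. Libraries with the same number correlated in their deviations at 0.082, 0.011, -0.012, -0.090 and -0.065. These values show no pairing by number, but they cannot exclude a shared litter or day.

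Several genes below the threshold changed sign, and the cause was not tested. Under quantile normalization Rpl12 was at -0.065, Rpl3 at -0.029, Rpl36a at -0.087, Rpl36al at -0.17, Rpl7l1 at -0.045, Rps27 at -0.026 and Rps27l at -0.19. With total read scaling Rpl12 was at -0.064, Rpl3 at -0.023, Rpl36a at -0.085, Rpl36al at -0.16, Rpl7l1 at -0.043 and Rps27l at -0.18, and with upper quartile scaling Rps27l was at -0.0099. Without heterozygous 1 and 2 Rpl12 was at -0.26, Rpl22 at -0.039, Rpl22l1 at -0.20, Rpl3 at -0.045, Rpl36a at -0.21, Rpl36al at -0.17, Rpl39 at -0.074, Rps27l at -0.099, Rps3a1 at -0.031 and Rps4x at -0.013. Without heterozygous 3, 4 and 5 Rpl3l was at -0.067 and Rps4l at -1.08. Scaled to the summed members Rpl12 was at -0.15, Rpl22 at -0.034, Rpl22l1 at -0.0086, Rpl3 at -0.11, Rpl36a at -0.17, Rpl36al at -0.25, Rpl39 at -0.0079, Rpl41 at -0.051, Rpl7l1 at -0.13, Rps27 at -0.040, Rps27l at -0.27 and Rps3a1 at -0.034. Over single leave-outs Rpl12 ran from -0.031 to 0.33, Rpl36a from -0.00031 to 0.34, Rpl36al from -0.028 to 0.20 and Rps27l from -0.028 to 0.18. Every member had at least 1218 normalized reads in each library, so depth limits these results less than the spread between heterozygous libraries.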
